A study of Mus musculus with 6 samples.

Results

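The genes described here are 10 nuclear receptors, the retinoic acid receptors Rara, Rarb and Rarg, their partners Rxra and Rxrb, the orphan receptors Nr2f6 and Nr4a1, the glucocorticoid receptor Nr3c1, Ppard and the vitamin D receptor Vdr. They were chosen by gene name from a table of 29097 genes, and each of the 10 had a row. RNA was read from cells of peripheral blood (PB) sorted as neutrophils (CD45+CD11b+Ly6G+). They came from male C57BL/6 mice aged 8 weeks. The method was Smart-seq2, which copies full-length mRNA and amplifies it by PCR. The groups were mice with ligature-induced periodontitis (LIP), in which a silk ligature lay around the teeth for 14 days, and mice left without a ligature over the same 14 days (Ctrl). Each group had 3 libraries, each from the pooled cells of 5 mice, so that p-values measure the spread between pools, and differences between single mice cannot be seen. Total counts per library lay between 52186555 and 57262379. Levels within a gene are given as CPM, the counts scaled to library size, after TMM scaling, which sets libraries to a common level over most genes, and levels between genes as FPKM, which are per gene length and per library total. A gene was tested by edgeR's quasi-likelihood test where its mean FPKM over the 6 libraries was at least 1, which held for 10440 genes, and was called at a Benjamini-Hochberg adjusted p under 0.05.

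The libraries of the groups stood apart in markers of blood cell types, and the part of this in the receptors' values was not tested except where a value is given below. The 14 neutrophil markers, none of them at 0, summed to 12678 to 14787 CPM in Ctrl and 49537 to 53255 CPM in LIP libraries, and 12 of the 13 tested were called higher. The B cell markers summed to 18271 to 20302 CPM in Ctrl and 3805 to 3833 CPM in LIP libraries, with 12 of 12 called lower. T cell markers (754 to 819 against 151 to 185 CPM, 12 of 12 lower) and erythroid markers (129774 to 138140 against 17586 to 18327 CPM, 9 of 9 lower) differed in the same direction, and none was at 0 throughout. Platelet markers were called higher in 12 of 12 cases and monocyte markers in 8 of 12, with 2 lower. Of the NK cell markers 4 of 9 were higher with TMM whereas with library totals the only call was 1 lower, and their summed CPM overlapped between groups. Of the eosinophil and basophil markers 2 of 7 were higher and 1 lower. In every Ctrl library the B cell sum was above the neutrophil sum. Receptor levels are therefore those of mixed RNA and not of neutrophils alone. Ly6g, used for the sort, was itself called higher in LIP (log2 fold change 1.55, edgeR adjusted p = 2.96e-05). In bulk RNA, fewer cells of a type and less RNA per cell cannot be told apart.

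Nuclear receptors are transcription factors that most often respond to small lipid-soluble ligands. Retinoic acid receptors bind DNA as a pair with a retinoid X receptor at repeated half-sites, recruiting corepressors without ligand and coactivators with it, and Rara is long known for its role in granulocyte differentiation, since its fusion with PML arrests promyelocytes in acute promyelocytic leukaemia. The glucocorticoid receptor is held in the cytoplasm by chaperones until it binds its hormone. Nr4a1 is an immediate early gene whose transcription follows cell stimulation within a short time and needs no known hormone.

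Promoter letters are shown for 3 receptors, Rarb for its direct repeat of half-sites, Nr4a1 for its copies of TGACG and Rara for the window with the most half-sites. An Rxra window, not shown, held 3 half-sites, as many as that of Rarb. RefSeq windows of 300 bases (250 before and 50 from the start of transcription, build GRCm38.p6) were found for 9 of the 10 receptors, 15 windows in all. The half-site was searched on both strands in its consensus form AGGTCA and in 3 variants of that form, namely AGTTCA as well as the variants GGGTCA and finally also GGTTCA, and occurred in 43.7% of all 32851 windows and in 7 of these 15. A direct repeat of the half-site with 5 bases between, the classic retinoic acid response element, was found in 0.0974% of all windows and, among the receptors, in Rarb only. TGACG, the half-site of cyclic AMP response elements, occurred in 20.8% of all windows, and 4 or more copies of it in 0.231%, with Nr4a1 the only receptor among them. A match describes these letters and is not evidence of binding. The stretches read 5′ to 3′ on the gene's strand. Capitals mark the direct repeat with its spacer in Rarb (chr14:16575477-16575569, minus strand, bases -93 to -1 from the start), the TGACG copies in Nr4a1, all on the opposite strand and therefore read as CGTCA (chr15:101266596-101266830, plus strand), and 4 half-sites on either strand in the Rara start site with most of them (chr11:98939461-98939655, plus strand).
Rarb: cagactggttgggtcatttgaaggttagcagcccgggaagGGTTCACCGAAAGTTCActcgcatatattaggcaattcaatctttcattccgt
Nr4a1: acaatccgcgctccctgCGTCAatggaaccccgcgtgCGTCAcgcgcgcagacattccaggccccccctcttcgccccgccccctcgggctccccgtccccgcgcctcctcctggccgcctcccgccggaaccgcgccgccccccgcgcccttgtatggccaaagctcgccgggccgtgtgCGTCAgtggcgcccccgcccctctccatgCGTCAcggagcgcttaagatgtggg
Rara: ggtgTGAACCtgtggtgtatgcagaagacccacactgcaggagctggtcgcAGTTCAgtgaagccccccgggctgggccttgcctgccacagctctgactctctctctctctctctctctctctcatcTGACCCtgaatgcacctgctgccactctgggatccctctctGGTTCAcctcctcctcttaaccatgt

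Of the 10 receptors, 7 passed the filter, of which 5 were called higher in LIP (Rara, Rarg, Rxra, Nr4a1 and Nr3c1), and Rxrb and Nr2f6 were not called. With TMM, none of the 7 was lower at an unadjusted p under 0.05 in edgeR, and DESeq2 called none lower. Rxrb was called lower by limma on FPKM and by edgeR with library totals. Scaling on neutrophil markers called 6 lower, as it did 9342 of all 10440 genes tested. Over all genes tested 53.6% were called, 26.5% higher and 27.2% lower. The median log2 fold change of the 7 receptors was 0.57, beside -0.09 over all genes tested. The groups' CPM ranges did not overlap for the 5 called receptors, as for 63.4% of all genes tested. The split of calls depended on the scaling. With library totals in place of TMM factors, 31.6% of all calls were higher against 49.4% with TMM (18.4% of genes higher and 39.7% lower), the median of all genes was -0.42, and 3 receptors were called, Rara and Rarg higher and Rxrb lower.

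**Figure D1:**
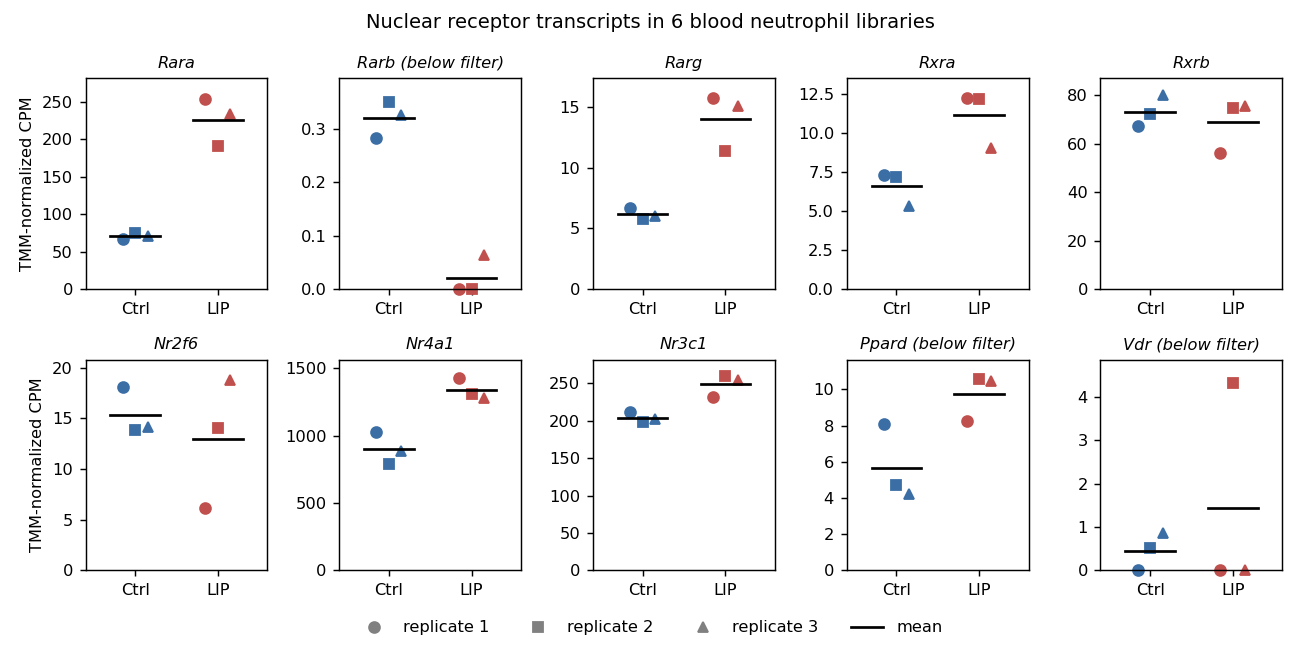
TMM-normalized CPM (linear axes from 0) of the 10 receptors in the 3 Ctrl and 3 LIP libraries, with a symbol for each replicate number and a bar for the group mean. Rara and Rarg lie higher in every LIP library than in any Ctrl library, Nr2f6 and Rxrb overlap, and the reads of Vdr in LIP come from 1 library.

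Rara, the receptor that binds all-trans retinoic acid in myeloid cells, had the largest rise of the 7. Its levels were 66.1, 74.7 and 70.6 CPM in Ctrl and 253, 191 and 233 CPM in LIP libraries. Every LIP library lay far above every Ctrl library, and the group means were 70.5 ± 4.27 and 226 ± 31.7 CPM (SD, n = 3 each). The log2 fold change was 1.68 (SE 0.13, 95% interval 1.39 to 1.97), a fold of 3.21, with an edgeR adjusted p of 2.8e-06. Of all genes tested, 4.34% had a higher log2 fold change. The call held without each library in turn (1.59 to 1.79) and under 10 of 11 other settings. The exception was scaling each library on the neutrophil markers, where the log2 fold change was -0.20 (adjusted p = 0.221). On the FPKM scale, Rara per 1000 units of summed neutrophil markers was 0.935 ± 0.0544 in Ctrl and 0.792 ± 0.138 in LIP libraries, and these ranges overlapped. That sum was led by S100a8 and S100a9 (mean FPKM over the 6 libraries 14390 and 15296), with Retnlg next at 2564. Relative to Csf3r, the receptor for granulocyte colony-stimulating factor, Rara was 0.050 ± 0.0153 and 0.0429 ± 0.00578, again with overlap. Csf3r is itself one of the neutrophil markers, so the comparisons are not independent. Rara (ENSMUSG00000037992) lies at chr11:98927818-98974162 on the plus strand of GRCm38.

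Rarg, a second retinoic acid receptor, was at a lower level with a change in the same direction. Its levels were 6.64, 5.79 and 6.01 CPM in Ctrl and 15.7, 11.4 and 15.1 CPM in LIP libraries. The lowest LIP library was above the highest Ctrl library, and as in Rara, LIP 2 was the lowest of its group. The log2 fold change was 1.19 (SE 0.27, 95% interval 0.60 to 1.78; edgeR adjusted p = 0.00358), and it was called without each library in turn (1.10 to 1.32) and under the 10 other settings in which it was tested, with the opposite direction (-0.69) in 1 of them, scaling on neutrophil markers. Rarg (ENSMUSG00000001288) lies at chr15:102234938-102257517 on the minus strand.

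Rarb, itself a textbook target of retinoic acid through the direct repeat shown above, was at the edge of detection. It had 17, 21 and 19 reads in Ctrl and 0, 0 and 3 reads in LIP libraries, out of 52186555 counts or more in each. The groups did not overlap, and the ratio of Ctrl to LIP was 15.8 (exact 95% interval 5.14 to 78.9, which covers counting error only). A library without reads allows up to 0.0597 CPM in LIP 1 and 0.0588 CPM in LIP 2, at 3 counts each. The difference in log2(CPM + 1) was -0.37 and the two-sided exact permutation p was 0.1, the smallest that 3 against 3 libraries allow. Without the FPKM filter at 1 but with edgeR's filterByExpr, its adjusted p was 0.109. Its exons share 1793 bases with Top2b on the opposite strand, whose levels were 87.5, 53.7 and 66.4 CPM in Ctrl and 54.7, 53.9 and 40.5 CPM in LIP libraries. The use of strand in counting is not given in the sources used here, so reads in the shared bases cannot be told apart. Rarb (ENSMUSG00000017491) lies at chr14:16430839-16575827 on the minus strand.

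Of the retinoid X receptors, the partners of the retinoic acid, vitamin D and PPAR receptors, Rxra was called higher near the threshold and Rxrb was not called. Rxrb, the more abundant of the pair, had 67.3, 72.4 and 80.1 CPM in Ctrl and 56.1, 74.9 and 75.6 CPM in LIP libraries. LIP 1 was the lowest of the 6, and the other LIP libraries lay within the Ctrl range. The log2 fold change was -0.09 (SE 0.15, 95% interval -0.42 to 0.24; edgeR adjusted p = 0.628), and without LIP 1 it was 0.04. With library totals it was -0.41 (adjusted p = 0.0378), which is a call. Rxra had 7.32, 7.16 and 5.33 CPM in Ctrl and 12.3, 12.2 and 9.02 CPM in LIP libraries, without overlap on this scale but with overlap in FPKM. Its log2 fold change was 0.76 (SE 0.29, 95% interval 0.12 to 1.40; edgeR adjusted p = 0.0462). That call was lost without Ctrl 1 (adjusted p = 0.0649), Ctrl 2 (0.0673), Ctrl 3 (0.151), LIP 1 (0.0886) or LIP 2 (0.115), held without LIP 3 (0.0403), and was lost with library totals (0.213). Over the settings other than scaling on neutrophil markers and leaving out libraries, 3 of 9 called it. Rxra (ENSMUSG00000015846) lies at chr2:27676440-27762957 and Rxrb (ENSMUSG00000039656) at chr17:34031812-34038397, both on the plus strand.

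Ratios within a library do not depend on its scaling, and those given here were chosen after the values were seen, so that they carry no test. The summed FPKM of Rara, Rarb and Rarg over that of Rxra and Rxrb was 0.926, 0.958 and 0.840 in Ctrl and 3.85, 2.24 and 2.79 in LIP libraries. Retinoic acid receptor transcripts were thus slightly below the RXR transcripts per length in every Ctrl library and above them in every LIP library. The sums were mostly Rara and Rxrb, whose own ratio was 0.879 ± 0.0698 in Ctrl and 3.09 ± 0.929 in LIP. The part of the groups' mix of cell types in these ratios was not tested. Rara alone was 0.609 ± 0.0550 of Nr3c1 in Ctrl and 1.61 ± 0.313 in LIP (FPKM, SD, n = 3 each). The order of the 2 receptors was reversed between the groups. Rara over Rarg was 11.3 ± 1.45 and 15.8 ± 0.677, and Rxra over Rxrb was 0.0576 ± 0.0140 and 0.105 ± 0.0316. None of these ratios overlapped between groups, and neither did the CPM of 63.4% of all genes tested.

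**Figure D2:**
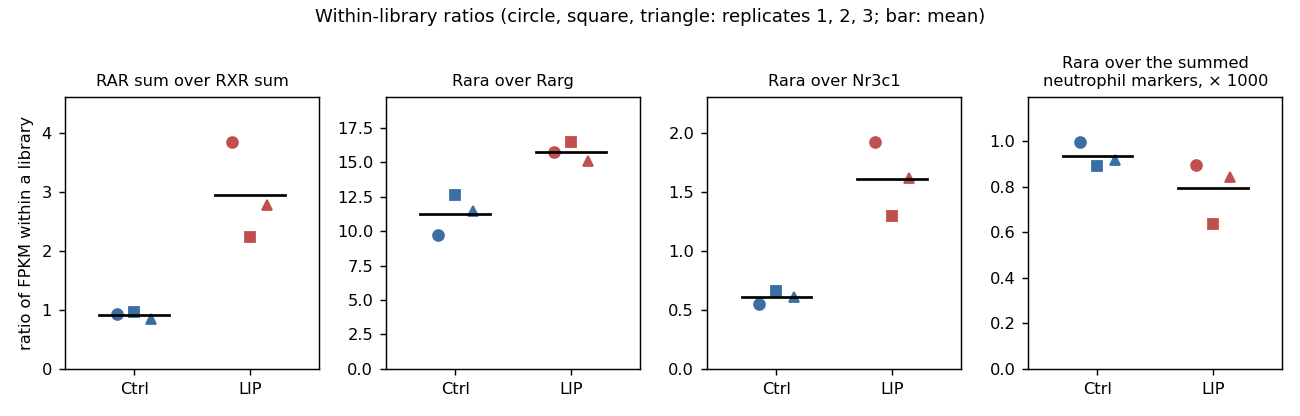
Ratios of FPKM within each library (linear axes from 0), with bars for the group means. The RAR to RXR ratio and the ratios of Rara to Rarg and Nr3c1 separate the groups, whereas Rara over the summed neutrophil markers (times 1000) overlaps between Ctrl and LIP.

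Nr2f6, an orphan receptor of the COUP-TF group, and Rarg are the receptors that the study considered as candidate regulators in type I interferon signaling. Nr2f6 had 18.1, 13.8 and 14.2 CPM in Ctrl and 6.17, 14.1 and 18.8 CPM in LIP libraries. LIP 1 was the lowest and LIP 3 the highest of all 6, so that the LIP libraries spanned the Ctrl range, with a coefficient of variation of 49.0% against 15.4% in Ctrl. The log2 fold change was -0.24 (SE 0.36, 95% interval -1.04 to 0.56; edgeR adjusted p = 0.592), and without LIP 1 it was 0.10. A fall or a rise within that interval was not detectable in these libraries. Of its 2983 exonic bases, 1622 are shared with Ocel1 on the opposite strand, which had 14.8, 15.8 and 15.3 CPM in Ctrl and 12.2, 16.2 and 15.2 CPM in LIP libraries. Nr2f6 (ENSMUSG00000002393) lies at chr8:71374123-71381960 on the minus strand.

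Nr4a1, the nuclear receptor Nur77, was the most abundant of the 10. Its levels were 1029, 788 and 885 CPM in Ctrl and 1427, 1308 and 1279 CPM in LIP libraries, without overlap. The log2 fold change was 0.57 (SE 0.10, 95% interval 0.34 to 0.80), a fold of 1.49, with an edgeR adjusted p of 0.00106. With library totals it was 0.25 (adjusted p = 0.0704), which is not a call, nor was it called by limma on FPKM (adjusted p = 0.0581 and 0.0629), and on the FPKM scale the groups overlapped (265 ± 40.2 and 318 ± 17.1, SD, n = 3 each). Nr4a1 is also a marker of nonclassical monocytes. The summed CPM of the 12 monocyte markers was 2352 to 2529 in Ctrl and 3132 to 3402 in LIP. Nr4a1 itself gave 901 and 1338 CPM of it on average, so the sum is no separate measure. Of the 12, 8 were called higher, Nr4a1 among them, and 2 lower, Irf8 and Ly86 (log2 fold changes -1.15 and -0.97). Its paralogs were not called, with log2 fold changes of 0.23 (SE 0.25, adjusted p = 0.452) for Nr4a2 and 0.05 (SE 0.20, adjusted p = 0.854) for Nr4a3. Nr4a1 (ENSMUSG00000023034) lies at chr15:101254269-101274795 on the plus strand, and its start site holds the 4 TGACG copies shown above.

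Among 19 immediate early genes, Nr4a1 included, 18 were tested. Of these, 12 were called higher and 1 lower in LIP, beside 26.5% and 27.2% of all genes. The median log2 fold change was 0.83. With library totals 9 were higher and 2 lower, beside 18.4% and 39.7% of all genes. Ier3, a survival gene induced by stress, rose from 97.2 ± 13.2 to 428 ± 22.9 CPM (edgeR adjusted p = 4.2e-07). Dusp1, a phosphatase that switches off MAP kinases, rose from 5610 ± 510 to 16860 ± 860 CPM (edgeR adjusted p = 1.7e-07). Dusp2, a related phosphatase, fell from 545 ± 29.4 to 336 ± 4.15 CPM (edgeR adjusted p = 8.78e-05). The change of Nr4a1 was therefore below the median of this list.

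Nr3c1, the glucocorticoid receptor, had 211, 199 and 203 CPM in Ctrl and 232, 260 and 254 CPM in LIP libraries. The groups did not overlap, with a log2 fold change of 0.28 (SE 0.10, 95% interval 0.07 to 0.50; edgeR adjusted p = 0.0323). This call was lost without Ctrl 3 (adjusted p = 0.0956), LIP 2 (0.0989) or LIP 3 (0.102), and 5 of 10 settings other than scaling on neutrophil markers called it. With library totals the log2 fold change was -0.04 (adjusted p = 0.763), and FPKM were 27.4 ± 1.29 and 27.0 ± 1.71 (SD, n = 3 each), so that the direction depends on the scaling. Nr3c1 (ENSMUSG00000024431) is on the minus strand of chromosome 18, from 39410545 to 39519421.

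The genes around the glucocorticoid receptor moved in both directions. Of 10 chaperones and prereceptor enzymes, 2 were called higher and 7 lower, beside 26.5% and 27.2% of all genes. Their median log2 fold change was -0.70. Fkbp5, the immunophilin that lowers the receptor's affinity for hormone and is itself induced by it, had 114, 59.4 and 94.4 CPM in Ctrl and 373, 372 and 354 CPM in LIP libraries (log2 fold change 2.03, SE 0.20; edgeR adjusted p = 1.47e-05). Its counterpart Fkbp4, which carries the receptor to the nucleus, fell from 184 ± 22.0 to 61.1 ± 4.29 CPM (edgeR adjusted p = 3.42e-06), and the cochaperone Stip1 from 379 ± 29.0 to 156 ± 19.1 CPM (edgeR adjusted p = 1.03e-05). Hsd11b1, which regenerates active glucocorticoid, was called higher with TMM (log2 fold change 0.45, adjusted p = 0.0335) and not with library totals (adjusted p = 0.494) or without Ctrl 1, Ctrl 3, LIP 1 or LIP 2 (0.0537 to 0.135), which leaves 1 of the 10 higher.

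Of 16 glucocorticoid-induced genes tested, 12 were called higher and 1 lower, beside 26.5% and 27.2% of all genes. Their median log2 fold change was 1.12. With library totals the counts were 10 and 2, beside 18.4% and 39.7% of all genes. Lcn2, which is also among the neutrophil markers, rose from 356 ± 40.3 to 1487 ± 85.4 CPM (edgeR adjusted p = 2.15e-07), and the kinase Sgk1 from 77.6 ± 16.1 to 129 ± 15.6 CPM (edgeR adjusted p = 0.00387, with library totals 0.0604). Tsc22d3, the glucocorticoid-induced leucine zipper and one of the most direct targets of the receptor, fell from 1011 ± 11.0 to 746 ± 31.4 CPM (log2 fold change -0.44, SE 0.08; edgeR adjusted p = 0.00086). Fkbp5 and Tsc22d3, both textbook targets, thus moved in opposite directions. Dusp1 belongs to this list as well as to the immediate early genes.

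Ppard, a receptor for fatty acids, was below the filter, with a mean FPKM of 0.925. It had 8.09, 4.71 and 4.20 CPM in Ctrl and 8.24, 10.5 and 10.5 CPM in LIP libraries. The groups did not overlap on this scale, but Ctrl 1 and LIP 1 were nearly equal, and in FPKM the groups overlapped (1.12 in Ctrl 1 and 0.903 in LIP 1). The difference in log2(CPM + 1) was 0.73, with a two-sided exact permutation p of 0.1, the smallest possible. With filterByExpr its log2 fold change was 0.83 (SE 0.33) and the edgeR adjusted p 0.0905. Of 9 PPAR target genes tested, 3 rose and 1 fell, a share called below the 53.6% of all genes, and the list's median was 0.19. With library totals 3 were higher and 2 lower, beside 18.4% and 39.7% of all genes, and the list's median was -0.13. Without Ctrl 2, 2 fell. Plin2, a lipid droplet coat protein, rose from 41.0 ± 8.50 to 148 ± 23.2 CPM (edgeR adjusted p = 1.08e-05), and Acaa2, an enzyme of mitochondrial fatty acid oxidation, fell from 37.2 ± 6.17 to 22.8 ± 3.01 CPM (edgeR adjusted p = 0.00991). Ppard (ENSMUSG00000002250) lies at chr17:28232700-28301474 on the plus strand.

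Vdr, which pairs with RXR when it binds vitamin D, had 0, 31 and 50 reads in Ctrl and 0, 220 and 0 reads in LIP libraries. LIP 2 held all reads of its group, and 1 Ctrl and 2 LIP libraries had none, which allows up to 0.0498 CPM in Ctrl 1, 0.0597 CPM in LIP 1 and 0.0635 CPM in LIP 3. The difference in log2(CPM + 1) was 0.31 (two-sided exact permutation p = 1), and no difference was detectable. Of 6 genes linked to vitamin D that were tested, 3 were called higher and 1, Pdia3, lower, and the latter call was lost without Ctrl 1, Ctrl 3, LIP 1 or LIP 3 (adjusted p of 0.099 to 0.176). Over all genes, 26.5% were called higher and 27.2% lower with TMM. With library totals 2 of the 6 were higher and 2 lower, beside 18.4% and 39.7% of all genes. Cd14, the lipopolysaccharide coreceptor, rose from 1393 ± 58.6 to 4296 ± 45.2 CPM (edgeR adjusted p = 8.5e-08). Camp, the cathelicidin gene, which is also a neutrophil marker, rose from 297 ± 28.2 to 388 ± 23.8 CPM (edgeR adjusted p = 0.00988, with library totals 0.568). Vdr (ENSMUSG00000022479) lies at chr15:97854425-97910630 on the minus strand.

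**Figure D3:**
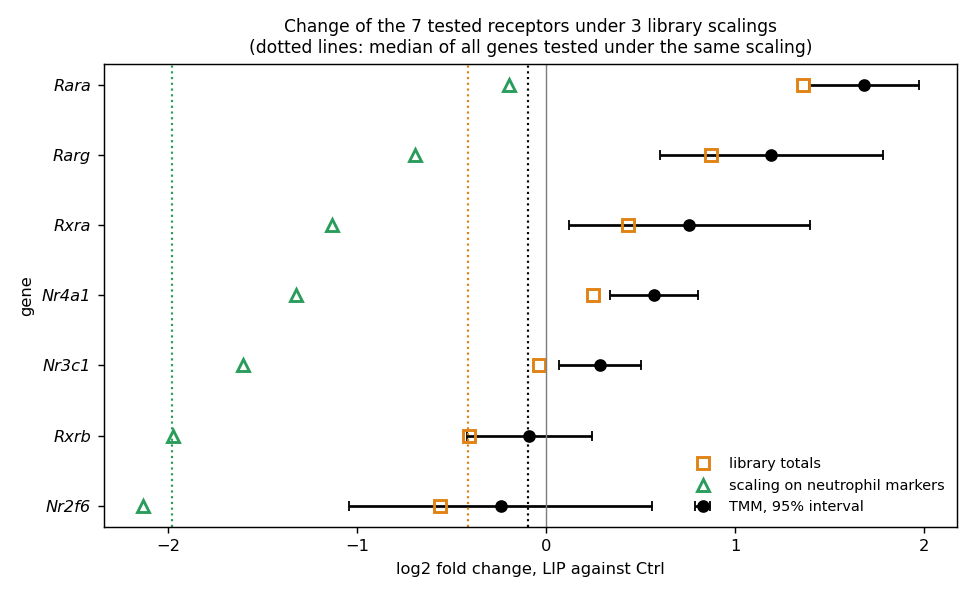
Log2 fold change of the 7 tested receptors in LIP against Ctrl, with TMM and its 95% interval (black), with library totals (squares) and with scaling on neutrophil markers (triangles), and the median of all genes under each scaling as a dotted line. Only Rara and Rarg stay above 0 by a call under both TMM and library totals, and all 7 lie below 0 under scaling on neutrophil markers, where the median of all genes is -1.98.

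Per gene length, the receptors spanned a wide range of levels. In Ctrl the mean FPKM was 265 for Nr4a1, 27.4 for Nr3c1, 19.0 for Rxrb, 16.6 for Rara, 5.30 for Nr2f6, 1.49 for Rarg, 1.08 for Rxra, 0.775 for Ppard, 0.0814 for Vdr and 0.0608 for Rarb. The ranges of Rxra and Ppard overlapped, as did those of Vdr and Rarb, and the other neighbours in this order did not. In LIP, Rara moved to the second place at 43.1 ± 5.89 FPKM, above Nr3c1 at 27.0 ± 1.71 and Rxrb at 14.4 ± 2.39. Below them, the ranges of Nr2f6 (3.62 ± 1.78) and Rarg (2.74 ± 0.453) overlapped, as again did those of Vdr and Rarb. Nr4a1 made up 78.5% ± 2.21 of the summed FPKM of the 10 receptors in Ctrl and 77.2% ± 1.54 in LIP, while the share of Rara was 5.0% ± 0.825 and 10.5% ± 1.17 (SD, n = 3 each).

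**Figure D4:**
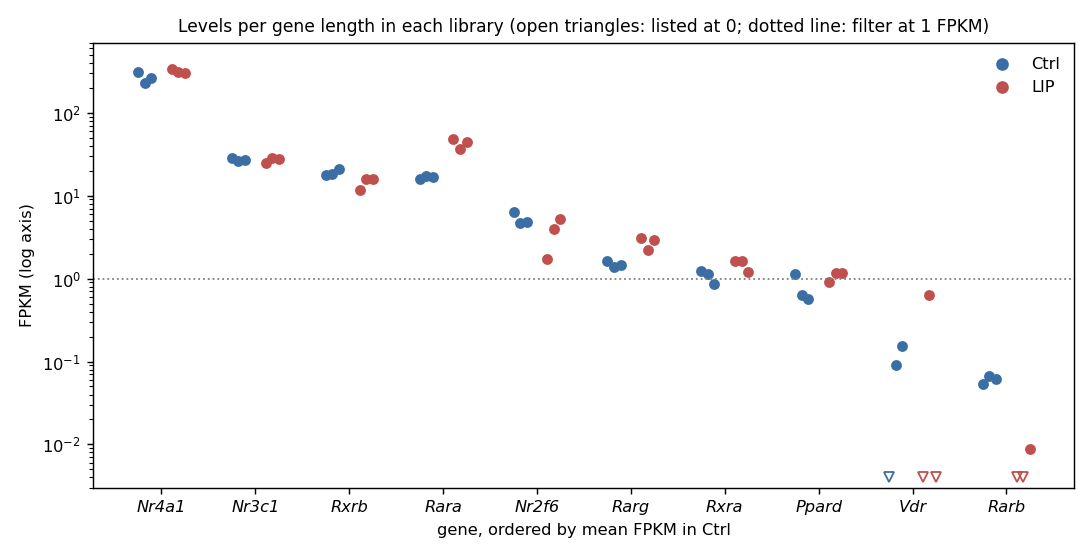
FPKM (log axis) of the 10 receptors in each Ctrl and LIP library, ordered by the Ctrl mean, with open triangles for libraries in which the gene was listed at 0. Nr4a1 leads in every library, and Rara stands below Nr3c1 in every Ctrl and above it in every LIP library.

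Within the wider family, 37 of 49 nuclear receptor genes looked up had a row and 14 were tested. The other 23 were below the filter, with mean FPKM of at most 0.925. Beyond the 5 receptors called higher, the only call with TMM was Nr1d2, a repressor of the circadian clock, which had 18.8, 5.74 and 9.65 CPM in Ctrl and 4.78, 1.69 and 2.58 CPM in LIP libraries (log2 fold change -1.92, SE 0.51; edgeR adjusted p = 0.0093). Ctrl 1 held its highest level, and without that library its log2 fold change was -1.34 (adjusted p = 0.0565), which is not a call. Pparg, which drives lipid storage, had 5.91, 5.93 and 6.48 CPM in Ctrl and 6.67, 11.9 and 14.2 CPM in LIP (adjusted p = 0.0529), and without LIP 1 it was called higher (adjusted p = 0.00774). Nr1h2, Esrra and Nr2c2 were not called with TMM (log2 fold changes 0.31, 0.42 and -0.39). With library totals 2 of the 14 were called higher and 3 lower, Nr2c2 among the latter (-0.72, edgeR adjusted p = 0.0179). Of all genes tested, 26.5% were higher and 27.2% lower with TMM, and 18.4% and 39.7% with library totals. Without Ctrl 3, 3 of the family were called higher in place of 5, and without Ctrl 2, 2 were lower, since Nr2c2 was then called (adjusted p = 0.0248). Without LIP 2, Nr1h2 was called higher (adjusted p = 0.022). The family's median was 0.30 with TMM and -0.02 with library totals.

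Retinoid transport and metabolism was split. Of 12 genes tested, 5 were called higher and 4 lower under both TMM and library totals. Over all genes the shares higher and lower were 26.5% and 27.2% with TMM and 18.4% and 39.7% with library totals. Dhrs9, which oxidizes retinol to retinal, rose from 40.4 ± 5.88 to 189 ± 8.72 CPM (edgeR adjusted p = 6.77e-07), and Dgat1, an acyltransferase that can esterify retinol, from 82.9 ± 4.46 to 377 ± 26.7 CPM (edgeR adjusted p = 2.14e-07). Rdh14 fell from 17.0 ± 2.59 to 5.56 ± 1.43 CPM (edgeR adjusted p = 0.000982) and Dhrs4 from 11.8 ± 2.46 to 6.69 ± 1.79 CPM (edgeR adjusted p = 0.0439), both reductases of retinal, and the call of Dhrs4 was lost without any 1 library but LIP 2 (adjusted p of 0.0622 to 0.169). Of 6 retinoic acid targets tested, 2 were higher and 2 lower. Dhrs3, which returns retinal to retinol, rose from 22.0 ± 6.07 to 43.8 ± 3.29 CPM and the transglutaminase Tgm2 from 76.8 ± 17.4 to 151 ± 22.4 CPM (edgeR adjusted p = 0.00249 and 0.00108). Cd38, an ectoenzyme also made by B cells, fell from 55.9 ± 14.3 to 13.9 ± 6.15 CPM (edgeR adjusted p = 0.000621).

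The cofactors of the receptors were called in both directions. Of 12 corepressor genes, 2 were called higher and 6 lower (median -0.52), beside 27.2% of all genes lower, and with library totals 8 were lower, beside 39.7% of all genes. Without Ctrl 2, Ctrl 3 or LIP 1, 1 was higher. Ncor1, the scaffold of the corepressor complex, was higher by 0.52 on the log2 scale with TMM (adjusted p = 0.000645) and not called with library totals (adjusted p = 0.0726), and the deacetylase Hdac1 fell from 93.0 ± 10.2 to 65.2 ± 7.66 CPM (edgeR adjusted p = 0.00972). Of 13 coactivator genes, 2 were higher and 4 lower (median -0.18), a share near that of all genes, and with library totals 7 were lower. Without Ctrl 2 or Ctrl 3, 1 was higher and 2 were lower, without LIP 1, 1 was higher, and without LIP 3 the calls of a higher level were lost. Ncoa4, which also delivers ferritin for breakdown in erythroid cells, fell from 128 ± 10.3 to 89.6 ± 13.2 CPM (edgeR adjusted p = 0.00876).

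**Figure D5:**
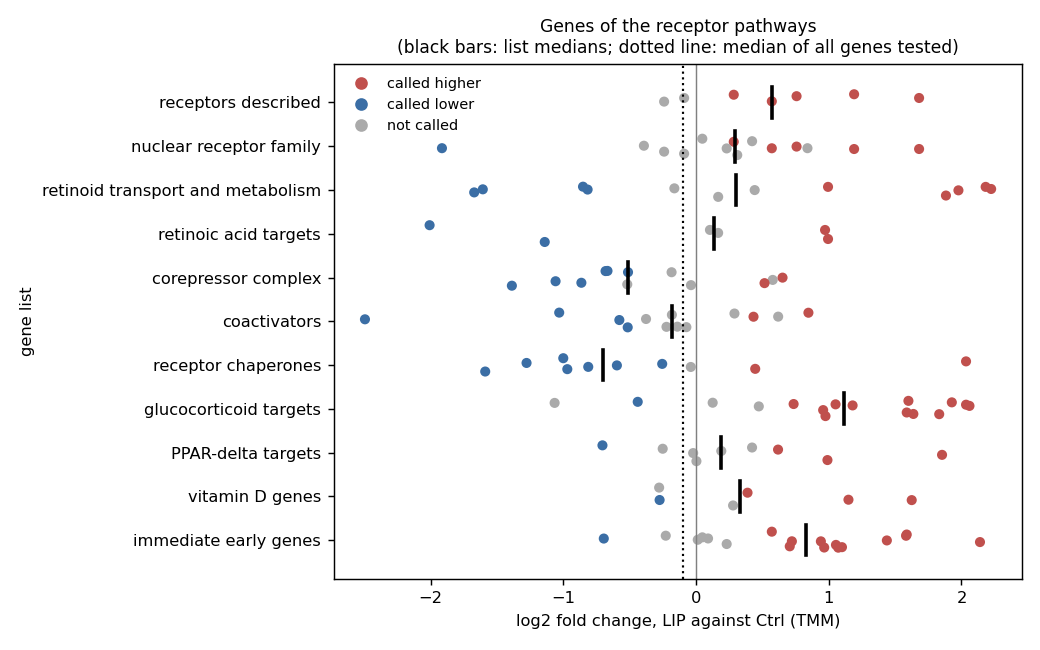
Log2 fold change with TMM of every tested gene in the receptor and pathway lists, coloured by call, with a bar at the median of each list and a dotted line at the median of all genes (-0.09). The glucocorticoid targets and the immediate early genes have the highest list medians (1.12 and 0.83), and the receptor chaperones the lowest (-0.70).

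Over the 6 libraries, Rara and Rarg followed each other with a Pearson r of 0.9823 of log2(CPM + 1). The genes most like Rara were Cxcl1, F10 and Gm12715 (r 0.9984, 0.9982 and 0.9975), and those most like Rarg were Nedd9, Lrp1 and Edem1 (0.9989, 0.9977 and 0.9969). Such values mostly carry the group difference, since 1257 genes (12.0%) had r over 0.95 with Rara and 801 (7.67%) with Rarg. For Nr2f6 only 18 genes (0.172%) did, among them Gm44164 and Gm12693 (0.9873 and 0.9829). Nr2f6 had r of -0.3985 with Rarg and 0.7709 with Rxrb, and Nr2f6 and Rxrb share LIP 1 as their lowest library.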

How the data were processed

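The deposited table gives unnormalized counts of reads for each gene and the FPKM that the authors derived from them with gene lengths and library totals, beside GRCm38 coordinates. The submitters' processing notes name FastQC and cutadapt 1.9, and the aligner, the counting tool and the use of strand are not given in the sources used here. Libraries were grouped by their labels (Ctrl and Lig, here LIP). Counts were tested with edgeR 4.0.16 (R 4.3.3; glmQLFit, TMM, no replicate block) over the 10440 genes averaging 1 FPKM or more, with Benjamini-Hochberg adjustment. The standard error was taken as the size of the log2 fold change over the root of F, and intervals use the t distribution of the fit. CPM are counts over library total times TMM factor. The 3 receptors below the filter were compared by two-sided exact permutation tests of log2(CPM + 1), for genes with at least 10 reads in 1 library. Of 50 gene names on several rows, the more abundant row was kept. Overlaps of exons were read from GENCODE vM21. The fit was tested on simulated counts.

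The receptors and gene lists were chosen with earlier results of these data known. Named were all 10 receptors, every tested family member, the 3 genes most correlated with Rara, Rarg and Nr2f6, and of each list the 2 highest and 2 lowest called genes averaging 5 FPKM or more. Some results for genes within this rule are not reported here. Marker lists are given by their sums and counts. Top2b, Ocel1, Csf3r and the within-library ratios were added after values were seen. Alternatives were other size factors (median of ratios, library totals, without haemoglobin genes, neutrophil markers), DESeq2 1.42.0, limma 3.58.1 on log2(FPKM + 1) and log2(FPKM + 0.1), other filters, a replicate block and leaving out each library. Intervals of log2 fold changes come from the fit and cover the spread between pools. Since PCR copies are counted as reads, the exact interval of Rarb and the floors of 3 counts cover counting error only, which is wide for Rarb and Vdr.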

Additional observations from a re-analysis of the deposited data

How the results depend on the processing

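The 5601 genes called became 9383 when libraries were scaled on neutrophil markers (41 higher) and 3637 when only genes averaging 5 FPKM or more were tested, and stayed within 1.5 times under every other setting. The 5 receptors called became 3 with library totals, with limma at either pseudocount and without a filter, 2 of 4 tested at 5 FPKM or more, and 3 to 4 when each library was left out in turn. Scaling on neutrophil markers called 6 receptors, all lower, with log2 fold changes of -0.69 for Rarg, -1.14 for Rxra, -1.32 for Nr4a1 and -1.60 for Nr3c1, and -0.20 for Rara without a call. It also turned Dhrs3 (-0.87), Tgm2 (-0.93), Ncor1 (-1.37), Hsd11b1 (-1.44), Sgk1 (-1.16), Slc25a20 (-0.89), Ucp2 (-1.26), Cd14 (-0.26), Camp (-1.49), Dusp1 (-0.29), Ppbp (-0.64), Pf4 (-0.66) and Gata2 (-0.97). The calls of a rise were lost with it for Dhrs9 (0.33), Ier3 (0.26), Lcn2 (0.18), Fkbp5 (0.13) and Plin2 (-0.03). Dgat1 (0.29) was still called higher. By construction this setting makes the summed marker counts level, not each marker, and lowers the changes of all genes by a like amount. The median over all genes was -1.98 with it and -0.09 with TMM, and 41 genes were still called higher. Nr3c1 was -0.037 with library totals and -0.024 and -0.025 with limma at pseudocounts of 1 and 0.1. Without LIP 1, Nr2f6 was 0.10 (range over libraries left out -0.60 to 0.10) and Rxrb 0.038 (-0.16 to 0.038), and the cause was not tested.

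The replicate numbers shared by the groups did not pair the libraries, which came from different mice, with correlations of their deviations of 0.0212, 0.0562 and 0.0364. With a replicate block 5546 genes and 4 receptors were called, Rxra no longer (adjusted p = 0.0582). The 3 pools per group limit what could be seen for Rxra, Nr2f6 and the receptors with few reads.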
